A study of Mus musculus with 8 samples.

Results

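The genes described here encode the proteins of the mitochondrial ribosome, and were taken from a table of polyA RNA read counts as every protein-coding row whose GRCm38 symbol starts with Mrpl or Mrps followed by a number. The rule took 78 of 53465 genes, 49 of the Mrpl family and 29 of the Mrps family. The cells were Ba/F3, a mouse line described in the labels as immortalised pro-B cells of the C3H strain. In 5 libraries (transformed 4 to 8) the line had been transformed with U2AF35 S34F, a mutant of a splicing factor that helps to recognise 3′ splice sites. The other 3 (parental 1 to 3) are of the parental line with wild-type U2AF35. Nothing in the labels ties the libraries to separate cultures or clones, so every p-value reflects the spread among these samples alone, which may be technical. The smallest library held 36122062 counts (transformed 7) and the largest 50305573 (parental 1).

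Mitochondria keep a small genome of their own and translate its messages, which encode core subunits of the respiratory chain and of the ATP synthase, on a ribosome unlike the one in the cytosol. Its RNAs come from mitochondrial DNA, but its proteins are encoded in the nucleus, made in the cytosol and imported. The large subunit (Mrpl proteins) forms peptide bonds and is held at the inner membrane. The small subunit (Mrps proteins) binds the messenger RNA and reads its codons. Some of the proteins have a counterpart in bacterial ribosomes and others occur in mitochondria only.

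U2af1, the gene of U2AF35, had 157, 144, 128, 92.0 and 132 CPM in transformed 4 to 8, against 85.3, 98.2 and 91.6 CPM in parental 1 to 3 (CPM, counts scaled to library size and adjusted between libraries by the TMM method). Its log2 fold change of 0.51 (SE 0.16, adjusted p = 0.108) did not pass the threshold of 0.05 in edgeR's quasi-likelihood test, and transformed 7 lay at the parental level. It passed in DESeq2 and in some fits with fewer libraries. A gene count does not separate an introduced copy from the endogenous gene, nor a mutant from a wild-type message. Of 12 pro-B cell markers only Ptprc, Cd79a and Cd79b exceeded 1 CPM, while Pax5, Ebf1, Rag1, Rag2 and Il7r were at or near 0 in both groups. Among 4 T cell and 4 fibroblast markers none exceeded 1 CPM. The 5 granulocyte and macrophage markers summed to 3.77 to 25.4 CPM in transformed and 8.13 to 21.7 CPM in parental libraries, and the 3 erythroid markers to 0.782 to 7.50 CPM in transformed and 1.32 to 2.30 CPM in parental libraries.

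Mitochondrial ribosomal protein genes were expressed in every library. The 77 that passed the filter on low counts had mean levels between 2.38 CPM (Mrps34) and 119 CPM (Mrpl16), with a median of 45.4 CPM, and 76 of them lay between 10 and 120 CPM. Mrpl53 alone did not pass the filter, with 0.0794 to 0.202 CPM in transformed and 0.175 to 0.220 CPM in parental libraries. Its annotated exons share 695 of 790 bases on the same strand with the predicted gene Gm42688, which had 2.23 to 5.33 CPM in transformed and 5.20 to 5.44 CPM in parental libraries. The handling of reads in such shared bases, not given in the sources used here, leaves both levels uncertain.

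Levels between genes were compared per kilobase of exon. The median of the 77 genes was 17.7 CPM per kb, with 22.1 CPM per kb over the Mrpl genes and 12.5 CPM per kb over the Mrps genes. Highest were Mrpl34 (58.9 CPM per kb), Mrpl12 (55.9 CPM per kb), which forms the flexible stalk that contacts translation factors, and Mrps21 (54.2 CPM per kb). Lowest were Mrps34 (1.16 CPM per kb), a protein of the small subunit found in mitochondria only, Mrpl48 (2.49 CPM per kb) and Mrps31 (3.90 CPM per kb). The highest value was 51.0 times the lowest. The order depended on the length used. Per kilobase of mean transcript length the median was 39.2 CPM per kb, the highest were Mrpl18 (106 CPM per kb), Mrpl20 (103 CPM per kb) and Mrpl52 (103 CPM per kb), and the lowest Mrps34 (1.93 CPM per kb), Mrps31 (6.20 CPM per kb) and Mrpl1 (8.74 CPM per kb). Between groups, Mrpl34 averaged 36.3 ± 9.84 CPM in transformed and 34.9 ± 6.84 CPM in parental libraries (SD, n = 5 and 3; edgeR adjusted p = 0.918). Mrps21 averaged 39.7 ± 8.69 CPM in transformed and 40.8 ± 3.66 CPM in parental libraries (adjusted p = 0.927), and Mrps31 averaged 13.6 ± 2.82 CPM in transformed and 11.5 ± 0.850 CPM in parental libraries (adjusted p = 0.448). Mrps34 shares 763 bases of its 2064 exon bases with Nme3 on the same strand and 1309 with Mapk8ip3 on the opposite strand, and Nme3 was listed at 0 counts in all 8 libraries. This leaves the level of Mrps34 uncertain, and with it the ratio of 51.0. In all, 8 of the 78 genes share exon bases with another gene on the same strand, 28 with a gene on the opposite strand and 45 with none.

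None of the 77 tested genes rose or fell in transformed cells at an adjusted p under 0.05 in edgeR. Over all 17733 genes tested, 0.908% were called higher and 2.1% lower. The smallest adjusted p among the mitochondrial ribosomal protein genes was 0.0542 (Mrpl50). At an unadjusted p under 0.05, 11 were higher (14.3%, against 10.6% of all genes tested) and 2 were lower (2.60%, against 11.6%). Limma-voom called 0 in either direction, with 0.902% of all genes higher and 2.42% lower. DESeq2 called 7 higher, with 4.81% of all genes called higher, and 1 lower, with 5.67% called lower.

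The differences were small and mostly of one sign. The log2 fold change was positive for 58 of 77 genes (75.3%), against 52.3% of all genes tested, and the median was 0.12, against 0.02 over all genes tested. For 44 of the 77 it lay within 0.2 of 0, and for 2 it lay beyond 0.5. The Mrps genes had a median of 0.14 with 24 of 29 positive, and the Mrpl genes a median of 0.08 with 34 of 48 positive (0.15 without parental 2). Proteins with a bacterial counterpart and proteins of mitochondria only had like medians, 0.11 with 36 of 48 positive and 0.11 with 21 of 28 positive.

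By library, the genes did not split cleanly by group. Relative to the parental mean of each gene on the log2 scale, the median over the 77 genes was -0.02 in transformed 4, 0.16 in transformed 5, 0.12 in transformed 6, 0.03 in transformed 7 and 0.17 in transformed 8, against -0.05 in parental 1, 0.10 in parental 2 and -0.04 in parental 3. Summed over the genes, these libraries held 3450, 3780, 3590, 3340 and 3680 CPM in transformed 4 to 8, against 3270, 3640 and 3320 CPM in parental 1 to 3. Transformed 5, 6 and 8 were thus above parental 1 and 3 but close to parental 2, while transformed 4 and 7 lay within the parental range. The same medians over all genes tested lay between -0.01 and 0.01 in each of the 8 libraries. The TMM scaling itself draws these towards 0, so they are no independent contrast. Parental 2 was the highest parental library for 61 of the 77 genes, and transformed 4 or transformed 7 was the lowest transformed library for 32 and 35 of them. These counts were not made over all genes tested. Across the 77 genes, the deviation from the parental mean correlated with log2 exon length in transformed 7 (r = 0.321), parental 1 (0.259) and parental 2 (-0.256). In the other libraries r lay between -0.079 and 0.119. The part of gene length in these differences was not tested.

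**Figure D1:**
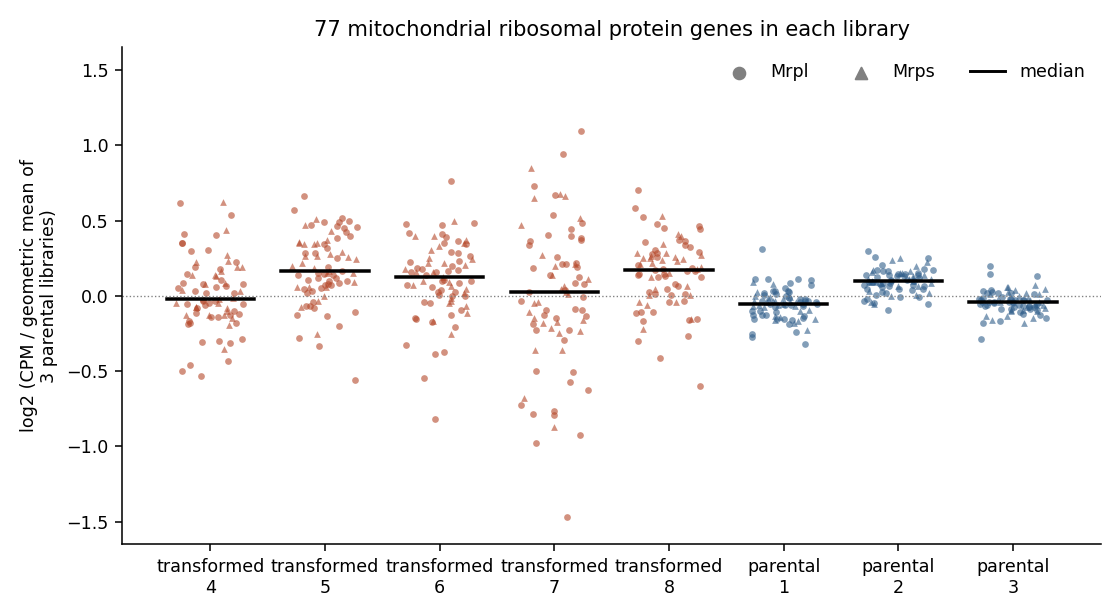
Level of each of the 77 tested genes in each library, as log2 of its TMM-scaled CPM over the geometric mean of the 3 parental libraries (vertical axis), with circles for Mrpl genes, triangles for Mrps genes and a bar at the median. The points of transformed 7 run from -1.47 to 1.09, and its median of 0.03 and that of transformed 4 (-0.02) lie below the median of parental 2 (0.10).

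Spread between libraries differed by group. The median standard deviation of log2 CPM was 0.204 over the 5 transformed libraries (0.262 for all genes tested) and 0.112 over 3 parental ones. Within transformed 5, 6 and 8 alone it was 0.061. Values over all genes tested were not computed for these sets of 3 libraries. A difference across the whole table therefore cannot be told from one of these genes. Transformed 5, 6 and 8 lay all above the 3 parental libraries for 39 genes and all below for 6, where the shares over all genes tested were 20.9% and 23.6%. They were set apart with earlier results of these data known, so these counts are a description.

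The largest positive log2 fold change was that of a large-subunit gene. Mrpl23 (chromosome 7, 142532686 to 142540747), the counterpart of a bacterial protein at the mouth of the peptide exit tunnel, had 22.0, 27.3, 29.2, 36.7 and 28.0 CPM in transformed 4 to 8, against 21.3, 16.9 and 14.1 CPM in parental 1 to 3. All transformed libraries were above all parental ones, though transformed 4 and parental 1 differed by less than 1 CPM. Its log2 fold change was 0.71 (SE 0.18, edgeR adjusted p = 0.0698).

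Mrpl50 (chromosome 4, 49512596 to 49521093), a large-subunit protein of mitochondria only, had 57.5, 52.2, 55.5, 47.5 and 55.2 CPM in transformed 4 to 8, against 37.8, 43.8 and 37.7 CPM in parental 1 to 3. The groups did not overlap, and the closest pair was transformed 7 and parental 2. The log2 fold change was 0.43 (SE 0.10, edgeR adjusted p = 0.0542). With a filter at 1 CPM in at least 3 libraries, which leaves fewer genes to adjust over, Mrpl50 passed (edgeR adjusted p = 0.0439), as 1.32% of all genes did in that direction, while 0 were lower there (2.62% of all genes).

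Mrpl17 (chromosome 7, 105803206 to 105811099), the counterpart of bacterial L17, had 57.3, 62.3, 62.3, 52.0 and 61.3 CPM in transformed 4 to 8, against 45.0, 49.1 and 41.1 CPM in parental 1 to 3, and a log2 fold change of 0.39 (SE 0.10, edgeR adjusted p = 0.0691). Mrpl48, also on chromosome 7, averaged 22.1 ± 1.88 CPM in transformed and 17.3 ± 1.24 CPM in parental libraries (SD, n = 5 and 3; edgeR adjusted p = 0.101). Mrpl57 averaged 33.3 ± 1.47 CPM in transformed and 26.6 ± 3.05 CPM in parental libraries (edgeR adjusted p = 0.104). Mrpl52, which like Mrpl57 lies on chromosome 14, averaged 46.3 ± 4.12 CPM in transformed and 37.8 ± 1.09 CPM in parental libraries (edgeR adjusted p = 0.127). These genes, with Mrpl46 and Mrps10, make up the 8 whose 5 transformed libraries all lay above the 3 parental ones (10.4%, against 8.07% of all genes tested).

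In the small subunit the largest log2 fold changes were those of Mrps18b (0.44, SE 0.13, edgeR adjusted p = 0.103) and Mrps10 (0.42, SE 0.16, edgeR adjusted p = 0.163), the mitochondrial form of a bacterial protein of the small subunit's head. Mrps18b had 19.3, 24.3, 22.7, 27.5 and 25.3 CPM in transformed 4 to 8, against 16.5, 19.7 and 16.6 CPM in parental 1 to 3. Transformed 4 lay just below parental 2, so the groups overlapped. Mrps10 had 72.0 CPM in transformed 7 and 43.8 to 52.7 CPM in the other transformed libraries, against 38.2 to 43.8 CPM in parental libraries. Transformed 4 and parental 2 differed there by less than 0.1 CPM. Mrpl47, the counterpart of bacterial L29 in the large subunit, completed the 6 largest positive log2 fold changes, with 16.02, 22.2, 20.1, 22.1 and 21.8 CPM in transformed 4 to 8, against 15.2, 17.4 and 15.0 CPM in parental 1 to 3 (log2 fold change 0.37, SE 0.13, edgeR adjusted p = 0.149). As in Mrps18b, transformed 4 was the only transformed library within the parental range.

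Genes lower in transformed cells were fewer, and the lowest lie on chromosome 19. Mrpl49 (6053622 to 6057785), a large-subunit protein of mitochondria only, had 52.7, 59.1, 51.0, 37.8 and 56.0 CPM in transformed 4 to 8, against 67.8, 79.5 and 76.7 CPM in parental 1 to 3. The groups did not overlap, and the log2 fold change was -0.54 (SE 0.14, edgeR adjusted p = 0.0706). Mrpl43 (45004829 to 45006442), also of mitochondria only, had 47.2, 56.1, 52.6, 35.8 and 56.6 CPM in transformed 4 to 8, against 62.4, 75.7 and 67.1 CPM in parental 1 to 3, a log2 fold change of -0.46 (SE 0.15, edgeR adjusted p = 0.123). Both share exon bases with a gene on the opposite strand, Mrpl49 with Syvn1 and Mrpl43 with Twnk, the gene of the mitochondrial DNA helicase. With Mrpl11 they are the 3 genes whose transformed libraries all lay below the parental ones (3.90%, against 9.69% of all genes tested). In Mrpl49 and Mrpl43, transformed 7 was the lowest library. Away from chromosome 19, Mrpl28 averaged 43.9 ± 6.99 CPM in transformed and 54.9 ± 5.29 CPM in parental libraries (SD, n = 5 and 3; log2 fold change -0.32, edgeR adjusted p = 0.226). Mrpl41, on chromosome 2, averaged 22.9 ± 4.79 CPM in transformed and 26.8 ± 2.02 CPM in parental libraries (log2 fold change -0.23, edgeR adjusted p = 0.483).

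**Figure D2:**
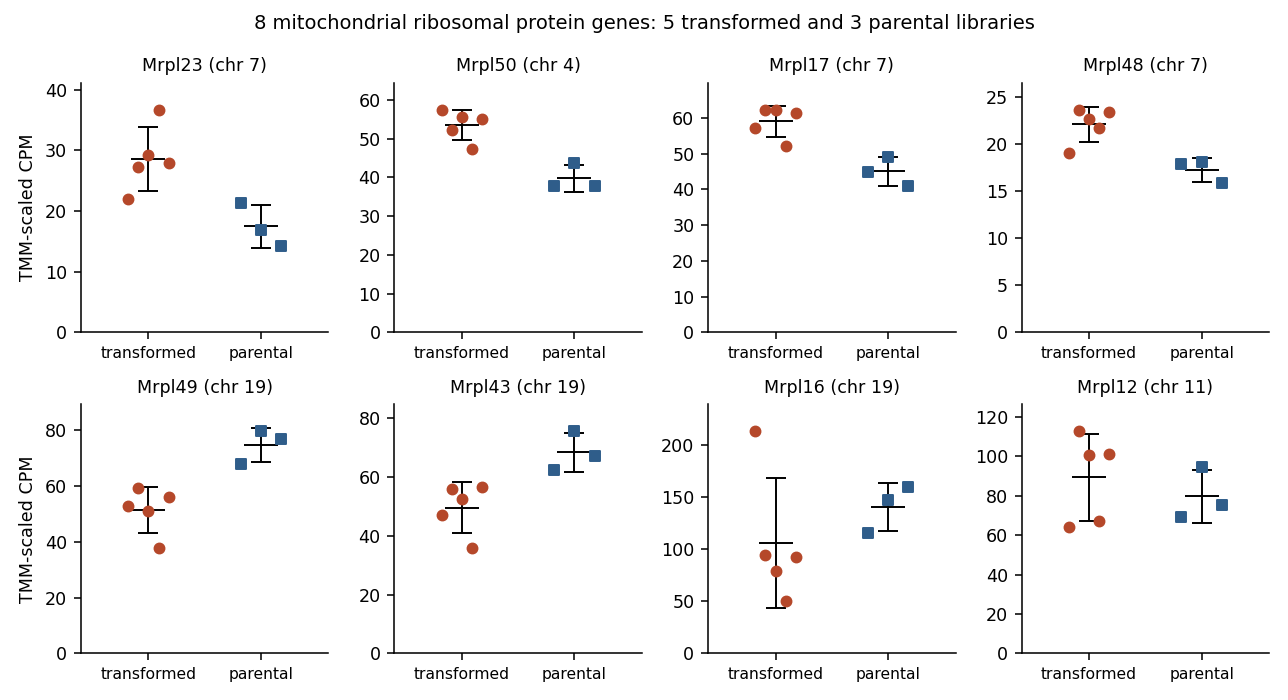
TMM-scaled CPM (vertical axes, linear, from 0) of 8 genes in the 5 transformed libraries (circles) and the 3 parental libraries (squares), with bars at the mean ± SD. The groups do not overlap for Mrpl23, Mrpl50, Mrpl17, Mrpl48, Mrpl49 and Mrpl43, while Mrpl16 in transformed 4 (213 CPM) lies above every other library and Mrpl12 overlaps between the groups.

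Mrpl16, the counterpart of a bacterial protein near the peptidyl transferase centre, behaved unlike the rest in a single library. It had 213 CPM in transformed 4 and 94.8, 79.1, 50.5 and 92.2 CPM in transformed 5 to 8, against 115, 147 and 160 CPM in parental 1 to 3. Transformed 4 was the highest of all 8 libraries, whereas the other 4 transformed libraries lay below every parental one. Over all libraries the log2 fold change was -0.41 (SE 0.40, edgeR adjusted p = 0.589). Without transformed 4 it was -0.83 (edgeR adjusted p = 0.0364, with 9.26% of all genes called lower), and without transformed 4 and 7 it was -0.67 (edgeR adjusted p = 0.00444, with 16.1% called lower).

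Expressed genes around Mrpl16 (chromosome 19, 11770391 to 11774960) were then examined within 200 kb, a choice made after its values were seen. Stx3, a syntaxin that starts 4.70 kb away, had 26.7 CPM in transformed 4 and 11.1 to 13.0 CPM in transformed 5 to 8, against 18.9 to 24.9 CPM in parental libraries. Ms4a2, the beta chain of the high-affinity IgE receptor, had 10.4 CPM in transformed 4 and 1.27, 1.5, 1.49 and 1.16 CPM in transformed 5 to 8, against 3.25 to 5.88 CPM in parental libraries. For both, as for Mrpl16, transformed 4 was the highest library and the other transformed libraries were below all parental ones. The other expressed genes of the window did not share the whole of this pattern. Patl1 and Osbp were lower in every transformed library, transformed 4 included, than in any parental one. Patl1 had 120 to 143 CPM in transformed and 176 to 199 CPM in parental libraries (log2 fold change -0.54, edgeR adjusted p = 0.0245, with 2.1% of all genes called lower). Osbp had 124 to 144 CPM in transformed and 154 to 168 CPM in parental libraries (-0.30, edgeR adjusted p = 0.0776). Ms4a3, which lies between Ms4a2 and Mrpl16, had 33.4, 14.7, 48.3, 17.7 and 20.2 CPM in transformed 4 to 8, against 26.9, 71.3 and 81.4 CPM in parental 1 to 3, so that parental 3 was highest and transformed 6 was above transformed 4. Ms4a6d had 6.24 CPM in transformed 4 and 3.11 to 4.2 CPM in the other transformed libraries, against 1.56 to 4.12 CPM in parental libraries. In transformed 4, Gm6365, Patl1 and Osbp had 0.863, 1.17 and 0.987 times the median of the other transformed libraries, against 2.17 times for Stx3 and 7.57 times for Ms4a2. Ms4a2 is also a mast cell marker, and the sum of the 5 mast cell markers was 149 CPM in transformed 4 and 6.69 to 81.5 CPM in the other transformed libraries, against 29.6 to 82.7 CPM in parental libraries. Most of that sum was Cpa3, while the defining markers Kit and Fcer1a had 0 counts in every library. In bulk RNA, fewer cells of a type and less RNA per cell cannot be told apart. The part of these markers in the Mrpl16 values was not tested.

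**Figure D3:**
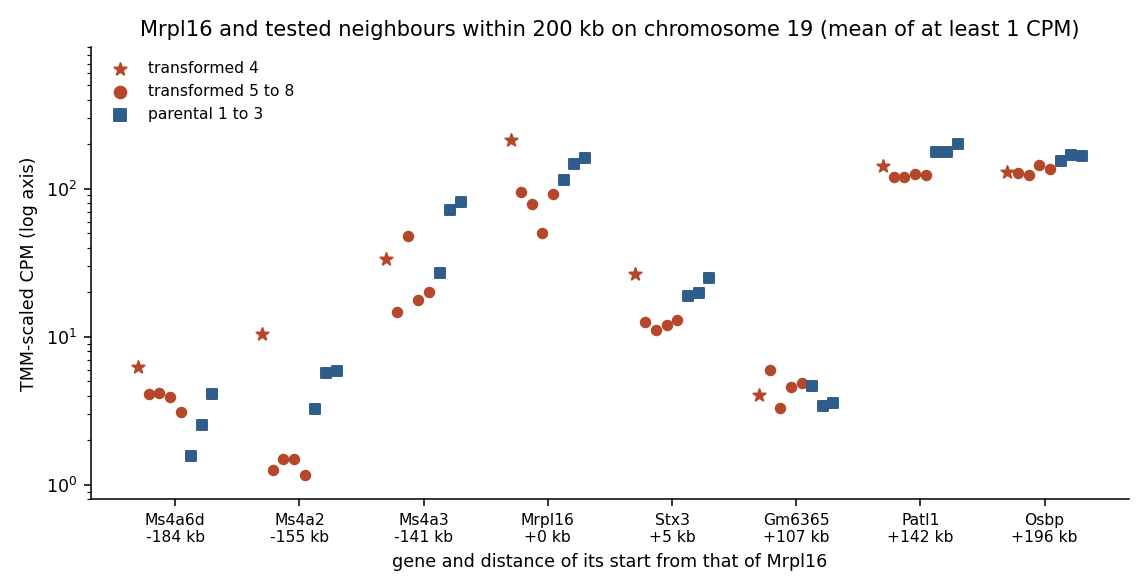
TMM-scaled CPM (vertical axis, log scale) of Mrpl16 and of the tested genes within 200 kb that average at least 1 CPM, placed by the distance of their starts from that of Mrpl16, with a star for transformed 4, circles for transformed 5 to 8 and squares for parental libraries. Mrpl16, Stx3 and Ms4a2 are highest in transformed 4 (213, 26.7 and 10.4 CPM) and lower in transformed 5 to 8 than in any parental library.

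Genes chosen for a known role differed in both directions, and none passed the test. At the base of the stalk, Mrpl11 had 50.7, 60.0, 59.1, 40.8 and 58.3 CPM in transformed 4 to 8, against 60.6, 67.3 and 61.3 CPM in parental 1 to 3 (log2 fold change -0.23, edgeR adjusted p = 0.347). Mrpl10, which anchors the stalk, averaged 69.0 ± 4.36 CPM in transformed and 66.7 ± 4.21 CPM in parental libraries (SD, n = 5 and 3; edgeR adjusted p = 0.784). Mrpl12, the stalk protein, had 63.9, 113, 101, 67.3 and 101 CPM in transformed 4 to 8, against 69.2, 94.5 and 75.1 CPM in parental 1 to 3. Transformed 5, 6 and 8 were above all parental libraries, whereas transformed 4 and 7 were below all of them (edgeR adjusted p = 0.691).

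Mrpl3, a core protein that binds the large ribosomal RNA, averaged 71.7 ± 10.9 CPM in transformed and 65.0 ± 4.98 CPM in parental libraries. Mrpl45, which tethers the ribosome to the inner membrane, averaged 78.6 ± 4.67 CPM in transformed and 77.5 ± 8.17 CPM in parental libraries. Mrpl58 (ICT1), a peptidyl-tRNA hydrolase that frees stalled ribosomes, averaged 22.3 ± 5.17 CPM in transformed and 20.2 ± 1.87 CPM in parental libraries. None of these 3 differences passed the test (edgeR adjusted p = 0.585 for Mrpl3, 0.922 for Mrpl45 and 0.711 for Mrpl58).

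Mrpl32 is processed by the m-AAA protease of the inner membrane before it joins the large subunit. It had 36.2, 36.8, 39.4, 66.5 and 39.9 CPM in transformed 4 to 8, against 37.4, 32.4 and 34.4 CPM in parental 1 to 3. Its log2 fold change was 0.33 (SE 0.20, edgeR adjusted p = 0.373), and 0.13 (edgeR adjusted p = 0.343) without transformed 7, which stood apart from all other libraries. Spg7, a subunit of that protease, had 52.8 to 62.3 CPM in transformed and 68.8 to 70.1 CPM in parental libraries, without overlap (log2 fold change -0.28, SE 0.08, edgeR adjusted p = 0.104).

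Mrps12, a protein of the decoding centre, averaged 45.2 ± 8.02 CPM in transformed and 37.1 ± 3.90 CPM in parental libraries (edgeR adjusted p = 0.329). Mrps15 averaged 54.4 ± 8.60 CPM in transformed and 46.4 ± 2.05 CPM in parental libraries (edgeR adjusted p = 0.347). Mrps30, which despite its name sits in the large subunit, averaged 40.1 ± 2.93 CPM in transformed and 36.2 ± 2.59 CPM in parental libraries (edgeR adjusted p = 0.412). Mrps36, which the symbol rule takes in but which is known as a component of the 2-oxoglutarate dehydrogenase complex, averaged 17.5 ± 2.45 CPM in transformed and 15.0 ± 1.58 CPM in parental libraries (edgeR adjusted p = 0.409).

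Genes of 1 chromosome often shared the sign of their difference, in a family where 58 of 77 genes (75.3%) were positive. All 5 tested genes on chromosome 19 were negative, with a median of -0.41 where the other 506 tested genes of the chromosome had -0.34. All 4 on chromosome 2 were negative (median -0.11, other genes -0.15). All 6 on chromosome 7 were positive (median 0.32, other genes 0.17), as were all 11 on chromosome 11 (0.14, other genes 0.05), all 5 on chromosome 13 (0.22, other genes 0.05), all 4 on chromosome 4 (0.22, other genes 0.06) and all 3 on chromosome 14 (0.29, other genes 0.11). The genes did not follow their chromosome everywhere. All 3 on chromosome 9 (median 0.14, other genes -0.03) and both on chromosome 8 (0.15, other genes -0.09) were positive where the other genes had a negative median, and those of chromosomes 1, 3, 5, 6, 16 and 17 were of mixed sign. Across the 77 genes, Pearson's r between the log2 fold change and the median of the other genes on the chromosome was 0.699 and Spearman's rho 0.528, given as a description since genes of 1 chromosome share that median.

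Taking the chromosome's median away from each gene narrowed the standard deviation of the log2 fold changes to 0.157, against 0.215 without it. The median remained positive, at 0.10, with 56 of 77 genes above their chromosome's median. After this step Mrpl23 stood at 0.54, against 0.71 before it. The chromosome medians were used after seeing the data.

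**Figure D4:**
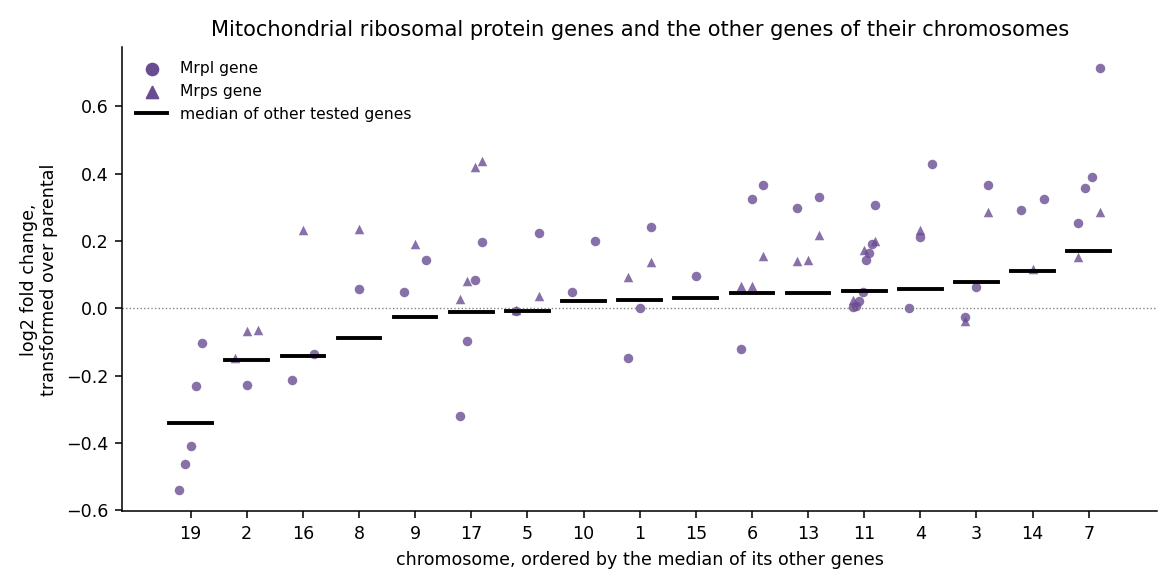
Log2 fold change, transformed over parental (vertical axis), of each tested gene by chromosome, with circles for Mrpl genes, triangles for Mrps genes and a bar at the median of the other tested genes on the same chromosome. Chromosomes are ordered by that median, from -0.34 on chromosome 19 to 0.17 on chromosome 7, and the genes of chromosomes 19 and 2 lie below 0 while those of chromosome 7 lie above it.

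How many genes passed depended on which libraries entered. A lane tag in the labels places transformed 5 and 8 with parental 1 and 3 in lane 6, and transformed 4, 6 and 7 with parental 2 in lane 7. In lane 6 alone 26 of 77 genes were higher and 0 lower in edgeR, with 9.6% of all genes called higher and 10.8% lower, and the median log2 fold change was 0.23. In lane 7 alone, where parental 2 is the only parental library and its spread is assumed to be that of the others, 0 of 78 genes were called, as was no gene in the table, and the median was -0.03 with 31 genes positive. With lane as a covariate over all libraries 0 were called (0.0846% of all genes were higher and 0.445% lower) and the median was 0.10. Relative to the parental mean, the lane 7 medians were -0.02 (transformed 4), 0.12 (transformed 6), 0.03 (transformed 7) and 0.10 (parental 2). Those of lane 6 were 0.16 (transformed 5), 0.17 (transformed 8), -0.05 (parental 1) and -0.04 (parental 3). The cause of these differences was not tested.

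Without transformed 4 and 7 together, 25 genes were higher (12.8% of all genes) and 3 lower (16.1% of all genes). The higher ones included Mrpl12 (log2 fold change 0.40, adjusted p = 0.0243), Mrpl36 (0.53, adjusted p = 0.00478), Mrpl19 (0.48, adjusted p = 0.00134), Mrps12 (0.43, adjusted p = 0.00595) and Mrps28 (0.39, adjusted p = 0.0184), and the lower ones were Mrpl16, Mrpl43 and Mrpl49. Leaving out transformed 4 alone gave 8 higher (6.25% of all genes) and 2 lower (9.26%), and leaving out transformed 7 alone gave 4 higher (2.87%) and 1 lower (4.76%). Leaving out any of the other 6 libraries gave 0 in either direction, with at most 0.0907% of all genes higher and 0.397% lower. Mrpl17, Mrpl23 and Mrpl50 were among the higher genes and Mrpl49 among the lower ones in DESeq2 and in all 3 of these edgeR fits.

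**Figure D5:**
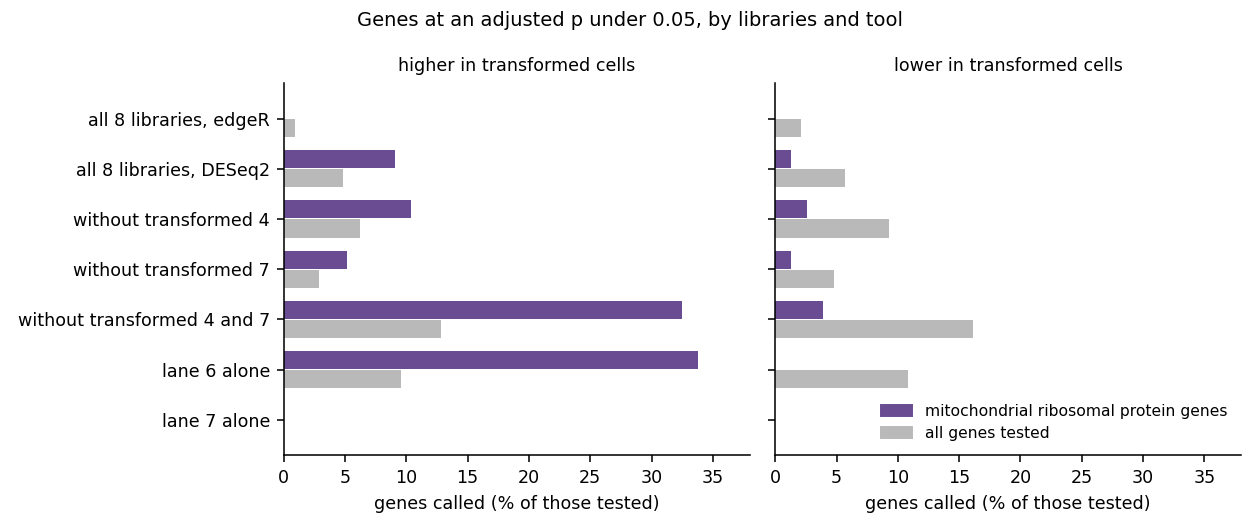
Share of genes at an adjusted p under 0.05 (horizontal axes, percent of genes tested) that were higher (left) or lower (right) in transformed cells, for the mitochondrial ribosomal protein genes and for all genes tested, by the libraries and tool used. The share of mitochondrial ribosomal protein genes called is 0 with all 8 libraries in edgeR and reaches 32.5% without transformed 4 and 7 and 33.8% in lane 6, each in the higher direction.

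Genes that work with the mitochondrial ribosome were counted from lists drawn up by function. None of the 5 ribosome proteins with other symbols was called in edgeR (median log2 fold change 0.01), nor any of 15 translation factors (0.08), 21 assembly factors (0.11), 8 genes of mitochondrial DNA transcription and replication (0.13), 17 mitochondrial aminoacyl-tRNA synthetases (0.05, and 0.135 without transformed 7) or 10 regulators of nuclear genes for mitochondria (0.04). Among the genes of these lists with the smallest p were Fastkd2, an RNA-binding protein needed for ribosome assembly, with 41.7 to 53.6 CPM in transformed and 34.1 to 40.4 CPM in parental libraries (log2 fold change 0.41, edgeR adjusted p = 0.0757), and Ptcd3, a small-subunit protein, with 154 to 182 CPM in transformed and 138 to 146 CPM in parental libraries (0.26, edgeR adjusted p = 0.106). Tefm, the elongation factor of mitochondrial transcription, had 13.2 to 15.9 CPM in transformed and 11.2 to 12.3 CPM in parental libraries (0.35, edgeR adjusted p = 0.0961). The groups did not overlap for these 3 genes, chosen by small p, where 8.07% of all genes tested lay all above and 9.69% all below. Spg7, also an assembly factor, was lower without overlap (-0.28, edgeR adjusted p = 0.104). Of the 21 assembly factors 13 were positive, with 2 all above and 3 all below the parental libraries. Of the 5 ribosome proteins 1 lay all above and 0 below, and of the 8 transcription and replication genes 2 and 0. Of the 15 translation factors 4 lay all above and 1 below, of the 17 synthetases 2 and 0, and of the 10 regulators 1 and 0. Nrf1, a transcription factor for nuclear genes of mitochondrial proteins, had 55.2, 63.9, 52.1, 55.5 and 60.6 CPM in transformed 4 to 8, against 41.3, 54.9 and 47.0 CPM in parental 1 to 3 (0.27, edgeR adjusted p = 0.214). Nars2 and Rars2, which charge mitochondrial tRNAs with asparagine and arginine, had log2 fold changes of 0.36 (edgeR adjusted p = 0.0953) and 0.49 (edgeR adjusted p = 0.140). Both were higher without overlap.

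The products of mitochondrial translation and the other large protein families were set beside them. Of the 13 messages encoded in mitochondrial DNA, 4 had a positive and 9 a negative log2 fold change with a median of -0.10, and none was called. Of 79 nuclear subunits of oxidative phosphorylation 47 were positive (median 0.03) and none was called. The smallest p there was that of Uqcrc2, a core protein of complex III on chromosome 7, with 215 to 239 CPM in transformed and 152 to 193 CPM in parental libraries (log2 fold change 0.41, edgeR adjusted p = 0.0526). Of 82 cytosolic ribosomal protein genes 65 were positive with a median of 0.11, close to that of the mitochondrial ribosomal protein genes. The families differed otherwise. All transformed libraries lay above all parental ones for 26 of the 82 and below for 0, against 8 and 3 of the 77 mitochondrial genes. Over all genes tested the shares were 8.07% and 9.69%. The cytosolic median was 0.104 in lane 6 and 0.0972 in lane 7, where the mitochondrial one was 0.231 and -0.0328. In edgeR 2 cytosolic genes were called higher (0.908% of all genes tested) and 0 lower (2.1%). Among those called was Rps16 on chromosome 7, with 578 to 628 CPM in transformed and 435 to 504 CPM in parental libraries (log2 fold change 0.36, edgeR adjusted p = 0.0484). The libraries differed in order between the families, since transformed 4 had the lowest median of the 5 transformed libraries for the mitochondrial family (-0.02) and the highest for the cytosolic one (0.21). Per kilobase of exon, the median level was 17.7 CPM for the mitochondrial family, against 226 CPM for the cytosolic one. Cytosolic ribosomal protein genes have many near-identical processed pseudogenes, so their counts are uncertain.

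Promoters were read from RefSeq (GRCm38.p6), 250 bases before to 50 after each start, for 69 of the 78 genes. The letters CCGGAAG, recognised by ETS factors such as GABP, stood on either strand in 26 of the 69 (37.7%), against 9.93% of all 27025 genes with an entry and 20.8% of the 9950 tested ones. GCATGCGC, the core recognised by NRF1, stood in 8 (11.6%, against 3.05% of all and 5.97% of tested genes), and AAGATGGCG, recognised by YY1, in 8 (11.6%, against 1.64% and 3.64%). CACGTG stood in 5 (7.25%, against 8.09% and 11.3%) and GGGCGGGG, an SP1 motif, in 16 (23.2%, against 19.6% and 34.5%). These motifs do not contain one another. The median log2 fold change was 0.12 for the genes with CCGGAAG and 0.09 for those without it, 0.13 and 0.10 for the NRF1 core, 0.18 and 0.08 for the YY1 letters, 0.09 and 0.12 for CACGTG, and 0.17 and 0.08 for the SP1 motif, given as a description. The stretches below, 130 bases that end 1 base before the RefSeq start and run 5′ to 3′ on the gene's strand, belong to 4 genes without overlap between groups, higher in transformed cells for Mrpl17 and Mrpl50 and lower for Mrpl43 and Mrpl49. Their RefSeq starts lie 12, 10, 0 and 30 bases from the GENCODE ones for Mrpl17, Mrpl50, Mrpl43 and Mrpl49, and capitals mark the letters searched, on either strand.
Mrpl17 (chr7:105811088-105811217, minus strand): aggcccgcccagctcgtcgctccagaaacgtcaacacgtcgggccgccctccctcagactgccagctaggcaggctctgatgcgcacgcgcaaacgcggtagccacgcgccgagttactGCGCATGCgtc
Mrpl50 (chr4:49521084-49521213, minus strand): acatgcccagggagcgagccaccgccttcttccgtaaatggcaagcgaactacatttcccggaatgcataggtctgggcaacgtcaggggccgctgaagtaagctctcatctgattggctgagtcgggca
Mrpl43 (chr19:45006443-45006572, minus strand): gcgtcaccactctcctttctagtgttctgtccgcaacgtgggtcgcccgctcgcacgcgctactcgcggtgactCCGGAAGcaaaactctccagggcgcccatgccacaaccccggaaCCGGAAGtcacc
Mrpl49 (chr19:6057756-6057885, minus strand): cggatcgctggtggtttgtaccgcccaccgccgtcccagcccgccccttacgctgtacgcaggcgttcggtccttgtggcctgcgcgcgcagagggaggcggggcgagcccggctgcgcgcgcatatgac

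Mrpl17, of the genes with higher values, carries the NRF1 core starting 11 bases before its start, and its entry also holds CCGGAAG outside the stretch printed. Mrpl43, of those with lower values, carries CCGGAAG starting 56 and 12 bases before its start. The stretches of Mrpl50 and Mrpl49 hold none of the 5 motifs.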

How the data were processed

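Per the submitters' processing notes, reads were processed with STAR 2.5.3a and featureCounts 1.5.3 on mm10 and GRCm38.p5. The authors deposited 1 table of raw counts, with Ensembl genes in rows and the 8 libraries in columns. Points not given in the sources used here are the strand setting, the treatment of multi-mapping reads, the annotation release and whether IL-3 was in the medium. Symbols, biotypes, exons and coordinates (GRCm38) came from GENCODE M21, which left 105 IDs with 0.0212% of counts unmatched. In R 4.3.3, edgeR 4.0.16 (filterByExpr, TMM, robust quasi-likelihood F test, 2-sided) tested 17733 genes across all 8 libraries, with Benjamini-Hochberg adjustment over all of them and a threshold of 0.05. The common biological coefficient of variation was 0.23. The function was tested on simulated data. Levels per kilobase use the union of exons.

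The genes, related lists, markers and motifs were chosen with earlier results of these data known. Named genes were U2af1, the genes at either end of the log2 fold changes (6 each), the 3 highest and 3 lowest levels per kilobase, up to 8 genes without overlap between groups, 12 with a known role and, of each related list, called genes and the 2 smallest p. Other genes were named after their values were seen. The alternatives were DESeq2 1.42.0, limma-voom (limma 3.58.1), leaving out each library or transformed 4 and 7 together, lane (as a covariate, or 1 lane at a time), RLE or upper-quartile factors, mean transcript length, and either no filter or a minimum of 1 CPM in 3 libraries. Chromosome medians, removal of overlapping genes or of chromosomes 7 and 19, and overlap counts under other settings were added after seeing the data. Of rows with a matching symbol, 5 of other biotypes were left out. Some single genes of the marker and related lists are not reported here.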

Additional observations from a re-analysis of the deposited data

Results flagged for a closer look

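Some libraries stood apart from the other 4 of the transformed group by Dixon's gap criterion at its 95% critical value, which flags about 1 in 20 groups by chance. Among all 77 tested genes this held for 12 (15.6%), and the library apart was transformed 4 in 5 of them (2 high, 3 low) and transformed 7 in 7 (4 high, 3 low). The share over all genes tested was not computed, so 15.6% cannot be read as particular to this family. Mrpl16 was high in transformed 4, at 213 CPM. Mrpl3 was low in transformed 4, at 52.6 CPM, with 74.5 to 78.9 CPM in the other transformed and 59.5 to 69.2 CPM in parental libraries. Mrpl32 was high in transformed 7, at 66.5 CPM. Mrps36 was low in transformed 7, at 13.2 CPM, with 17.5 to 19.1 CPM in the other transformed and 13.4 to 16.5 CPM in parental libraries. Of the related genes, Gfm2, a factor of mitochondrial ribosome recycling, was high in transformed 7, at 58.6 CPM, with 48.4 to 50.4 CPM in the other transformed and 39.4 to 43.8 CPM in parental libraries. Mtrf1, a release-factor homolog, was high in transformed 7, at 12.4 CPM, with 10.5 to 10.7 CPM in the other transformed and 7.87 to 9.89 CPM in parental libraries. Max, the dimer partner of Myc, was high in transformed 6, at 193 CPM, with 158 to 167 CPM in the other transformed and 125 to 143 CPM in parental libraries. The causes were not tested.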

How the results depend on the processing

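No paired analysis was possible because the groups share no replicate numbers. With all libraries in edgeR 0 genes were called in either direction (0.908% of all genes tested were higher and 2.1% lower). DESeq2 called 7 higher (4.81% of all genes) and 1 lower (5.67%). The filter at 1 CPM called 1 higher (1.32%) and 0 lower (2.62%). Lane 6 alone called 26 higher (9.6%) and 0 lower (10.8%). The fit without transformed 4 and 7 called 25 higher (12.8%) and 3 lower (16.1%). Leaving out 1 library at a time gave 0 to 8 higher and 0 to 2 lower. These were 8 (6.25%) and 2 (9.26%) without transformed 4, and 4 (2.87%) and 1 (4.76%) without transformed 7. The median log2 fold change of 0.12 was 0.231 in lane 6 and -0.0328 in lane 7. It was 0.178 in lane 6 and -0.0417 in lane 7 for Mrpl genes, and 0.284 in lane 6 and -0.0123 in lane 7 for Mrps genes. With 1 library left out it ran from 0.0843 to 0.156 for all, from 0.0526 (without transformed 5) to 0.15 (without parental 2) for Mrpl genes, and from 0.116 to 0.172 for Mrps genes. Under RLE factors it was 0.12, minus chromosome medians 0.10, without genes sharing exon bases on the same strand 0.13 and without chromosomes 7 and 19 0.11. Of the related lists, translation factors (0.08) had 0.257 in lane 6, -0.0674 in lane 7, 0.246 without transformed 4 and 7, and -0.0144 (without parental 1) to 0.192 (without parental 2) with 1 library left out. Aminoacyl-tRNA synthetases (0.05) had 0.203 in lane 6, -0.0374 in lane 7, and 0.0109 (without transformed 8) to 0.135 (without transformed 7). Assembly factors had -0.0746 in lane 7. Mitochondrially encoded messages had -0.012 in lane 7 and -0.125 (without parental 1) to -0.016 (without parental 3) with 1 library left out. Regulators had -0.0562 in lane 7 and -0.0543 with no filter. Oxidative phosphorylation subunits had 0.159 in lane 6 and -0.0963 in lane 7. With 1 library left out, the genes whose transformed libraries all lay above the parental ones numbered 7 to 20. They were 20 without transformed 4 (14.4% of all genes tested), 16 without parental 2 (12.1%) and 13 without transformed 7 (11.2%). Those all below numbered 3 to 6, with 5 without transformed 4 (17.9%), 6 without parental 1 (13.8%) and 5 without parental 3 (11.3%). With fewer libraries these shares were larger than with all 8 (8.07% above and 9.69% below).

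Of 864 single-gene comparisons with an alternative, 730 kept both sign and call, 96 gained a call, 19 lost one and 19 changed sign. The adjusted p of U2af1 was under the threshold at 0.0352 with DESeq2, and with edgeR at 0.006 for lane 6, 0.0141 leaving out transformed 7 and 0.000888 leaving out transformed 4 and 7. The sign changed in lane 7 for Mrpl34 (-0.399), Mrpl12 (-0.295), Mrpl10 (-0.107), Mrps34 (-0.0913), Mrpl45 (-0.0824), Mrpl3 (-0.0417), Nrf1 (-0.0218), Mrpl58 (-0.0126), Mrps36 (-0.0123) and Mrps30 (-0.0079). Mrps21 had 0.241 in lane 6 and 0.143 without transformed 4 and 7. With 1 library left out, the sign depended on the library for Mrps21 (-0.109 to 0.0854), Mrpl34 (-0.0539 to 0.23), Mrpl45 (-0.0568 to 0.0843) and Mrps34 (-0.0893 to 0.242). The causes were not tested.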
